A study of Mus musculus with 13 samples.

Results

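Krt14, Krt5, Trp63, Acta2 and Mylk are 5 genes by which basal and myoepithelial cells of the mammary gland are recognised, and this account gives 5-hydroxymethylcytosine (5hmC) in the genomic bins that hold them. The values are percentages of 5hmC in bins of 300 kb along the mouse genome (GRCm38). A bin was taken when it overlapped the body of 1 of the 5 genes, which gave 7 of the 9097 bins of the table. Krt14, Krt5 and Acta2 each lie in 1 bin, and Trp63 and Mylk each span 2.

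Shallow TAB-seq was done on 13 breast tumours, each from an FVB mouse in which the middle T antigen of polyoma virus (PyMT) had driven tumour growth. In this method 5hmC is protected before the other methylated cytosines are oxidised and converted, so that a remaining cytosine read stands for 5hmC. In the first model mice were 16 weeks old and Phd2+/+ (n = 3) or Phd2+/- (n = 4). Phd2 encodes an oxygen sensor that marks hypoxia-inducible factors for degradation, and the labels describe tumours of heterozygotes as having regained vessels and oxygen. In the second model mice were 12 weeks old and had received a hydrodynamic injection of the empty PRRL2 plasmid (n = 3) or of PRRL2-sFlk1 (n = 3). sFlk1 is a soluble form of a VEGF receptor that traps the growth factor, and the labels describe these tumours as more hypoxic. No uninjected mice stand in the second model, and both its groups carry the same vector. The labels name neither the promoter that drives PyMT nor the site from which sFlk1 was made. The labels number a mouse for each tumour and say nothing of litters or days, so p-values measure the spread between these tumours, which may in part be technical.

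The mammary epithelium has 2 layers: luminal cells that make milk, and an outer basal layer whose mature form, the myoepithelial cell, contracts to expel it. Basal cells hold a keratin 5 and keratin 14 filament network under the control of p63, and myoepithelial cells add the actin and kinase of smooth muscle. 5hmC is made from 5-methylcytosine by TET dioxygenases, which need oxygen, and it is known to gather over the bodies of active genes. Whole tumours were measured, so the share of cells with 5hmC at a gene and the level per cell cannot be told apart. No expression was measured in these samples, so whether the tumours held basal or myoepithelial cells was not checked.

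How much of a bin belongs to its gene differed widely. Krt14 (chr11:100203162-100207510) filled 1.45% of its bin and Krt5 (chr15:101707069-101712905) 1.95%. Acta2 (chr19:34240336-34255585) filled 5.08%. The Trp63 gene body (chr16:25683763-25892088) covered 38.7% of its first bin and 30.7% of its second, and Mylk (chr16:34745199-35002436) covered 18.3% and 67.5%. The Krt14 bin (chr11:100200001-100500000) holds 14 protein-coding genes, among them Krt16, Krt17 and Jup, and the Krt5 bin (chr15:101700001-102000000) holds 12, all of them type II keratins and including part of the luminal keratin gene Krt8. The Acta2 bin (chr19:34200001-34500000) also holds Fas, Ch25h, Lipa and part of Stambpl1. Values for Krt14, Krt5 and Acta2 are therefore mainly those of their neighbourhood. Both Trp63 bins and the first Mylk bin also lie mostly outside their gene. The first Trp63 bin (chr16:25500001-25800000) has no other protein-coding gene. The second also holds P3h2, and protein-coding genes cover 77.6% of it, against 30.7% by Trp63. The second Mylk bin also holds Hacd2.

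5hmC is read mostly at CpG sites, and the sequence before a transcript start shows how many of them a promoter offers. RefSeq windows of 250 bases upstream of a transcript start (GRCm38.p6) were matched for 4 of the 5 genes: Krt14, Krt5, Acta2 and Mylk. The count of CG in the window, which reads the same on both strands, was 5, 2, 4 and 3. The median over 32851 such windows was 6, and the middle 50% of windows held 2 to 16. The windows of Krt5 and Mylk are printed with each CpG in capitals, because they hold the fewest of the 4. The Krt5 window (chr15:101712906-101713155, minus strand) lies directly before the annotated gene. The Mylk window (chr16:34784700-34784949, plus strand) lies in the first Mylk bin, before a start inside the longer gene model.
Krt5: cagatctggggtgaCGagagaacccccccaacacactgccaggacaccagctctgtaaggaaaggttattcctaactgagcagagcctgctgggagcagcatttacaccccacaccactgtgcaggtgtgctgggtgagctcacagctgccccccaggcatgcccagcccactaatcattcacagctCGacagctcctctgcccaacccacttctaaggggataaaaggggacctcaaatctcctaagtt
Mylk: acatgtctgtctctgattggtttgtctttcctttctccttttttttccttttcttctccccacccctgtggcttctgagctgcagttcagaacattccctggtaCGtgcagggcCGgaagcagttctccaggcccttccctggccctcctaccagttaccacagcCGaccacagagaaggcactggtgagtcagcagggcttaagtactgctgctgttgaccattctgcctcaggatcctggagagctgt

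Facts of the whole table that bear on these bins are few. Of its bins, 8576 were tested. The mean over them was 2.18% to 2.42% in the Phd2+/+ tumours and 2.54% to 3.17% in the Phd2+/- tumours. It was 2.57% to 2.86% in the empty vector and 2.39% to 2.52% in the sFlk1 tumours. The difference was 0.527 percentage points in the Phd2 model (exact two-sided permutation p = 0.0571) and -0.219 in the sFlk1 model (exact permutation p = 0.10, the smallest that 3 against 3 allows). The table gives no coverage, so depth is unknown and values carry no counting interval. The share of bins listed at exactly 0, of which an unknown part may lack reads, ran from 0.863% in Phd2+/- tumour 3 to 4.99% in sFlk1 tumour 3. None of the 7 bins was at 0 in any tumour.

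The second Trp63 bin, shared with P3h2, had the highest 5hmC of the 7. Over all 13 tumours it held 6.34% ± 1.17 (SD, n = 13), above 97.7% of all tested bins. The second Mylk bin followed with 5.18% ± 1.38, the first Trp63 bin with 5.04% ± 1.32, Acta2 with 4.20% ± 0.638, Krt14 with 3.95% ± 0.904 and Krt5 with 3.59% ± 0.655 (SD, n = 13 each). The first Mylk bin was last at 2.52% ± 0.824, close to the mean of all bins, of which it held 0.967 times. The other 6 bins held 1.38 to 2.43 times that mean. Neighbours in this order were mostly not separated: the second Mylk bin exceeded the first Trp63 bin in 6 of 13 tumours, Acta2 exceeded Krt14 in 7, and the first Trp63 bin exceeded Acta2 in 9, as did Krt14 over Krt5. The ends of the order stood further apart, with the second Trp63 bin above the second Mylk bin in 10 of 13 tumours and Krt5 above the first Mylk bin in 11.

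**Figure D1:**
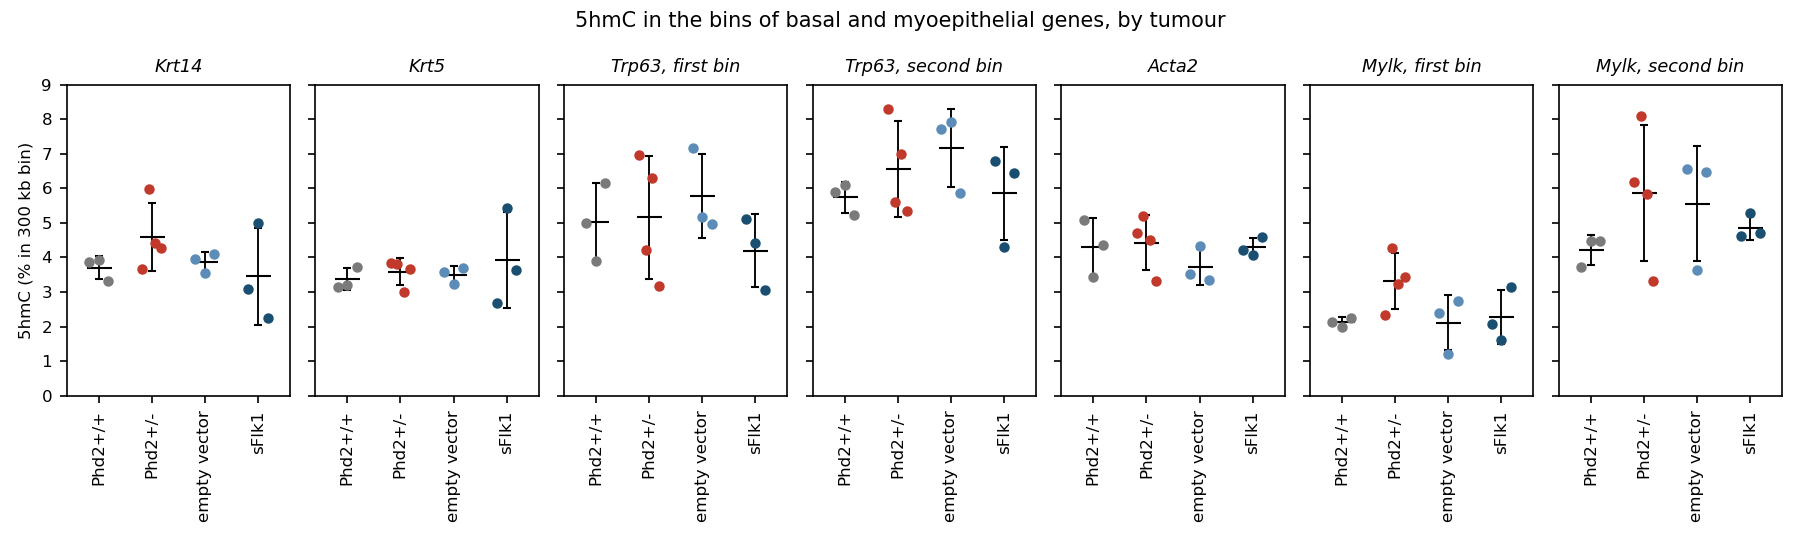
5hmC (% in the 300 kb bin, vertical axis from 0) in each of the 7 bins, 1 panel a bin, with 1 point a tumour for 3 Phd2+/+, 4 Phd2+/-, 3 empty vector and 3 sFlk1 tumours. Horizontal bars are group means and whiskers 1 SD. In the first Mylk bin all 4 Phd2+/- tumours lie above all 3 Phd2+/+ tumours, and in every other panel the groups of a model overlap.

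The bins were also set beside bins with a similar number of protein-coding genes. The share of a bin that genes cover was not matched, and it was 77.6% in the second Trp63 bin and 93.3% in the second Mylk bin. Bins with 2 protein-coding genes, as the second Trp63 and Mylk bins have, held a median of 2.78% over 1153 bins, and these 2 bins stood above 95.7% and 88.3% of them. The first Trp63 bin stood above 91.3% of the 2090 bins with 1 gene. Krt14 and Krt5 stood above 70.3% and 56.7% of bins with a gene count within 25% of theirs, and Acta2 above 67.4%. The first Mylk bin, with 4 genes, stood above 31.6% of such bins. These are descriptions across bins, which are not replicates.

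The keratin genes showed no separation of groups in either model. Keratin 14 is the type I keratin of basal cells. Its bin held 3.86%, 3.91% and 3.32% in Phd2+/+ tumours 1 to 3 and 3.67%, 5.97%, 4.42% and 4.26% in Phd2+/- tumours 1 to 4. Tumour 2 of the heterozygotes was the highest of all 13, and tumour 1 lay inside the wild-type range. The difference was 0.882 percentage points (SE 0.70, limma adjusted p = 0.643 over all bins), and 0.419 without Phd2+/- tumour 2. With each value divided by its tumour's mean over bins and put back on the percent scale, called relative to the tumour mean from here on, it was 0.0193. In the sFlk1 model the bin held 3.95%, 3.54% and 4.09% in empty vector tumours and 3.09%, 5.01% and 2.25% in sFlk1 tumours. The sFlk1 tumours lay on both sides of the controls, with a group SD of 1.41 against 0.284, and the difference of -0.412 (SE 0.749, limma adjusted p = 0.928) became 0.186 without sFlk1 tumour 3 and -1.19 without sFlk1 tumour 2.

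Keratin 5 is the type II partner with which keratin 14 forms filaments. Its bin varied little between most tumours: 3.15%, 3.21% and 3.73% in Phd2+/+, and 3.84%, 3.82%, 3.01% and 3.67% in Phd2+/- tumours. The groups overlapped, with a difference of 0.219 (SE 0.639, limma adjusted p = 0.922), which was -0.479 relative to the tumour mean. The empty vector tumours held 3.57%, 3.23% and 3.70%, and the sFlk1 tumours 2.69%, 5.43% and 3.63%. Here sFlk1 tumour 2 was the highest of all 13 tumours, and without it the difference of 0.417 (SE 0.683, limma adjusted p = 0.915) was -0.340. Relative to the tumour's own mean over bins, the Krt14 and Krt5 bins correlated across tumours with Pearson r = 0.411 (n = 13), and sFlk1 tumour 2 was the highest of its model in both.

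Trp63 encodes p63, the transcription factor on which the basal layer depends. In the Phd2 model its first bin held 4.99%, 3.89% and 6.15% in wild-type and 6.96%, 4.22%, 6.30% and 3.16% in heterozygous tumours. Its second bin (chr16:25800001-26100000) held 5.88%, 6.10% and 5.23% against 8.30%, 5.59%, 6.99% and 5.34%. In both bins heterozygous tumours 1 and 3 were above all wild-type tumours and tumours 2 and 4 were not. The differences were 0.150 (SE 0.897, limma adjusted p = 0.970) and 0.820 (SE 0.931, limma adjusted p = 0.764), and -0.874 and -0.443 relative to the tumour mean. Without Phd2+/- tumour 1 they were -0.451 and 0.237. The first was also below 0 without Phd2+/+ tumour 2 (-0.410) and without Phd2+/- tumour 3 (-0.229).

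In the sFlk1 model the Trp63 bins had the widest differences of the 7 in percentage points, while relative to the tumour mean Acta2 (0.913) exceeded the second Trp63 bin (-0.757) in size. The first held 7.16%, 5.16% and 4.97% in empty vector and 5.12%, 4.41% and 3.06% in sFlk1 tumours. The second held 7.70%, 7.92% and 5.87% against 6.79%, 4.30% and 6.45%. In each bin 2 empty vector tumours were above every sFlk1 tumour and 1 lay inside the sFlk1 range. The differences were -1.57 (SE 0.959, 95% interval -3.54 to 0.398, limma adjusted p = 0.740) and -1.32 (SE 0.995, limma adjusted p = 0.797). Of all bins, 4.49% and 7.25% had a lower difference. The 2 values ranged from -2.03 to -0.874 and from -1.97 to -0.544 when 1 tumour was left out, and did not pass the test.

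Acta2 encodes the smooth muscle actin of myoepithelial cells, vessel walls and activated fibroblasts. Its bin held 5.09%, 3.43% and 4.37% in Phd2+/+ and 4.70%, 5.19%, 4.50% and 3.33% in Phd2+/- tumours. The ranges nearly coincided, with a difference of 0.135 (SE 0.662, 95% interval -1.22 to 1.49, limma adjusted p = 0.960) that was -0.758 relative to the tumour mean and ran from -0.299 to 0.534 when 1 tumour was left out. Empty vector tumours held 3.52%, 4.32% and 3.34% and sFlk1 tumours 4.22%, 4.07% and 4.59%. Only empty vector tumour 2 reached the sFlk1 range, and the mean was 0.568 higher in sFlk1 tumours (SE 0.707, limma adjusted p = 0.888), against the direction of the genome-wide mean. Of all bins, 88.5% had a lower sFlk1 difference than this one.

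Beside Acta2 the pattern was another. The bin before it (chr19:33900001-34200000, with the lipase genes Lipf, Lipk, Lipn and Lipm, Ankrd22 and part of Stambpl1) held 6.55% ± 0.521 (SD, n = 4) in Phd2+/- and 4.40% ± 1.52 (SD, n = 3) in Phd2+/+ tumours. It held 3.51% ± 1.29 in sFlk1 and 6.38% ± 0.402 in empty vector tumours (SD, n = 3 each), where the highest sFlk1 tumour (4.39%) lay below the lowest control (6.02%). This bin was singled out after its values were seen, and the differences of 2.15 and -2.86 did not pass (limma adjusted p = 0.357 and 0.497). Averaged with both neighbours over 900 kb, Acta2 moved from 0.568 to -1.03 in the sFlk1 model (SE 0.493, limma adjusted p = 0.618) and from 0.135 to 1.17 in the Phd2 model (SE 0.462, limma adjusted p = 0.142).

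Mylk encodes the kinase that phosphorylates myosin light chains and so starts contraction of smooth muscle and myoepithelial cells. Its first bin (chr16:34500001-34800000), shared with Ropn1, Ccdc14 and an end of Kalrn, held 2.14%, 1.98% and 2.25% in Phd2+/+ and 2.33%, 4.28%, 3.22% and 3.44% in Phd2+/- tumours. It was the only one of the 7 bins whose groups did not overlap, with all 4 heterozygous tumours above all 3 wild-type tumours, although tumour 1 cleared the highest control narrowly. Such a separation upward was found in 11.0% of all 8576 bins and in 17.4% of the 3840 bins whose mean over tumours lay in the range of the 7 (2.52% to 6.34%). The difference was 1.19 (SE 0.579, 95% interval 0.00396 to 2.38), with an unadjusted limma p of 0.0493 and an adjusted p of 0.460, so it did not pass over all bins. Leaving out 1 tumour moved it between 0.871 and 1.52, and relative to the tumour mean it was 0.658.

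The second Mylk bin (chr16:34800001-35100000), which holds most of the gene, had the largest Phd2 difference of the 7 in percentage points, though not in percent change (39.0% against 56.2% in the first Mylk bin) or relative to the tumour mean. Wild-type tumours held 3.72%, 4.46% and 4.47%, and heterozygous tumours 6.18%, 8.08%, 5.85% and 3.33%. Tumours 1 to 3 of the heterozygotes were above every wild-type tumour and tumour 4 was below them all. The difference was 1.64 (SE 0.911, limma adjusted p = 0.505), 2.49 without that tumour, 0.904 without Phd2+/- tumour 2 and 0.520 relative to the tumour mean. In the sFlk1 model the first bin held 2.38%, 1.22% and 2.73% in empty vector and 2.07%, 1.61% and 3.13% in sFlk1 tumours, and the second 6.55%, 3.64% and 6.48% against 4.62%, 5.27% and 4.69%. In the first bin sFlk1 tumour 3 was above all controls and the others were not, and in the second all sFlk1 tumours lay inside the control range. The differences were 0.162 (SE 0.619, limma adjusted p = 0.972) and -0.694 (SE 0.974, limma adjusted p = 0.902).

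**Figure D2:**
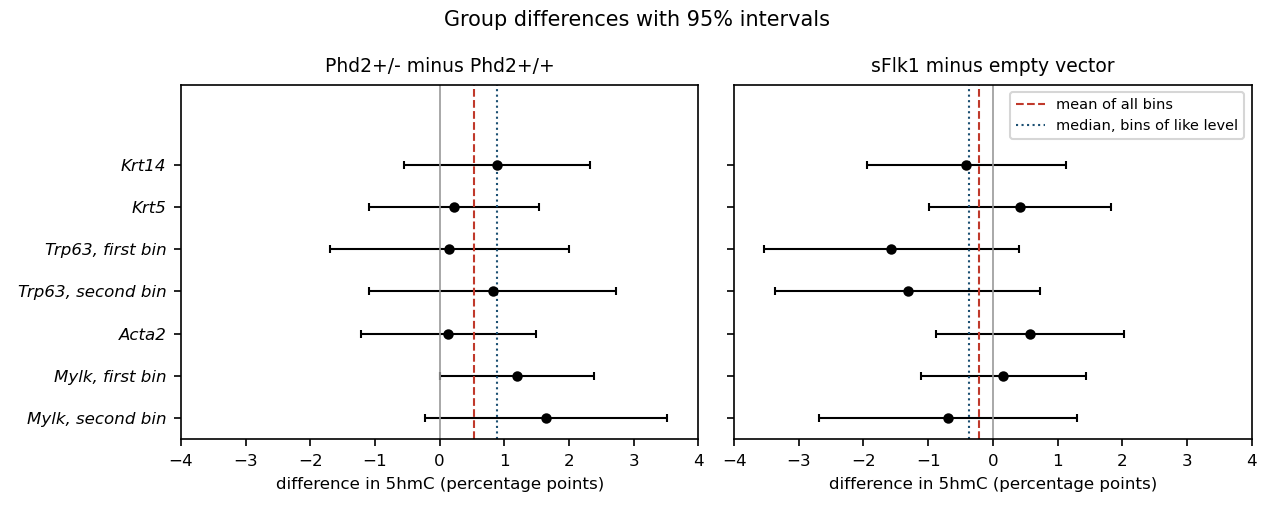
Difference in 5hmC between groups (percentage points, horizontal axis) for the 7 bins, with limma's 95% intervals as whiskers, for Phd2+/- minus Phd2+/+ (left) and sFlk1 minus empty vector (right). The dashed line is the mean difference of all bins (0.527 and -0.219) and the dotted line the median over bins of like level (0.882 and -0.376). The intervals of 6 bins on the left and of 7 on the right include 0.

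The 7 bins were then set against the rest of the genome. In Phd2+/- tumours 7 of 7 had the higher mean in percent, and 3 of 7 (Krt14 and both Mylk bins) when values were divided by the tumour mean. In percent, 75.1% of all bins and 90.9% of bins of like level were higher, and 24.8% and 9.09% lower. Divided by the tumour mean, 46.8% and 56.1% were higher. With limma 0 of 7 passed, where 0% of 8576 bins did, and 1 of 7 had an unadjusted p under 0.05, where 10.8% of all bins had. No bin of the 7 had all heterozygous below all wild-type tumours, as 0.933% of all bins and 0.104% of those of like level had. The median difference of the 7 was 0.820 percentage points, against 0.385 over all bins and 0.882 over those of like level. The single bins were spread widely around that median: the Phd2 difference exceeded that of 13.3% of bins of like level at Acta2, 13.8% at the first Trp63 bin, 15.8% at Krt5, 46.6% at the second Trp63 bin, 50.1% at Krt14, and 67.8% and 85.2% at the Mylk bins. In multiples of the tumour mean, Phd2+/- tumours held 1.54 ± 0.151 (SD, n = 4) at Acta2 against 1.83 ± 0.265 (SD, n = 3) for Phd2+/+, and 1.16 ± 0.265 against 0.908 ± 0.0242 at the first Mylk bin.

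In sFlk1 tumours 4 of 7 bins had the lower mean (Krt14, both Trp63 bins and the second Mylk bin), where 59.5% of all bins and 68.5% of those of like level did. The other 3, Krt5, Acta2 and the first Mylk bin, were higher, where 40.3% and 31.5% were. The same 3 were higher relative to the tumour mean, where 51.9% of all bins and 46.7% of those of like level were. The median difference was -0.412, against -0.146 over all bins and -0.376 over bins of like level. Relative to the tumour mean the differences were -1.11 and -0.757 at the Trp63 bins, -0.243 at the second Mylk bin and -0.107 at Krt14, and 0.913 at Acta2, 0.725 at Krt5 and 0.349 at the first Mylk bin. With limma 0 of 7 passed, where 0.0117% of all bins did, and 0 had an unadjusted p under 0.05, where 7.18% of all bins had. The adjusted p of the 7 ran from 0.740 to 0.972. The groups overlapped in all 7 bins. All sFlk1 tumours were above all controls in 3.43% of all bins and 1.59% of those of like level, and below them in 8.24% and 11.6%.

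Both models were also joined, as the mean of Phd2+/- minus Phd2+/+ and of empty vector minus sFlk1. The better oxygenated arm had the higher value in 5 of 7 bins. The share of all bins was not counted for the joined difference, but each model alone leaned this way. Phd2+/- tumours were higher in 75.1% of all bins and 90.9% of those of like level, and sFlk1 tumours lower in 59.5% and 68.5%. The largest joined differences were 1.17 percentage points in the second Mylk bin (SE 0.667, limma adjusted p = 0.463), 1.07 in the second Trp63 bin (SE 0.681, limma adjusted p = 0.505) and 0.861 in the first (SE 0.657, limma adjusted p = 0.588). Krt5 and Acta2 had differences of -0.0990 and -0.217. Relative to the tumour mean the joined differences were smaller at the second Mylk bin (0.382), the second and first Trp63 bins (0.157 and 0.120), the first Mylk bin (0.155) and Krt14 (0.0629), and were -0.602 at Krt5 and -0.835 at Acta2. With limma 0 of 7 passed, where 0.0117% of all bins did, and 0 had an unadjusted p under 0.05, where 13% had. The difference between the models passed for 0 of 7 bins, against 0.0117% of all bins, and 0 had an unadjusted p under 0.05, against 4.98%. Its largest value was -1.42 at the first Trp63 bin (SE 1.31, limma adjusted p = 0.950), followed by 1.35 at the first Mylk bin (SE 0.847, limma adjusted p = 0.927). The models were not shown to differ at any of these genes, and model and age (16 against 12 weeks) cannot be told apart.

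Where a gene spanned 2 bins, the step between them was read within each tumour, over 13 tumours, and adjusted over 2 genes. Group differences were read between tumours and adjusted over 8576 bins, so the p-values of the 2 cannot be set side by side. In Mylk the second bin exceeded the first in 12 of 13 tumours, by 2.66 percentage points on average (SD 1.21, permutation p = 4.88e-04, 9.77e-04 adjusted over the 2 genes, two-sided). The exception was Phd2+/- tumour 4, by -0.107. In Trp63 the second bin was higher in 11 of 13 tumours, by 1.30 (SD 1.17, permutation p = 0.00293 before and after adjustment), and lower in Phd2+/+ tumour 3 and sFlk1 tumour 2. The Trp63 step was smaller in size than the sFlk1 differences of its 2 bins (-1.57 and -1.32). The size of the Mylk step exceeded that of 92.5% of the 8548 pairs of adjacent bins, whose median was 0.704, and the Trp63 step exceeded 70.1%. How many adjacent pairs reach such a permutation p was not counted. The bins differ in gene cover too, with P3h2 in the second Trp63 bin and Hacd2 in the second Mylk bin. Protein-coding genes cover 63.8% and 93.3% of the Mylk bins and 38.7% and 77.6% of the Trp63 bins. The part of that in the step was not tested.

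**Figure D3:**
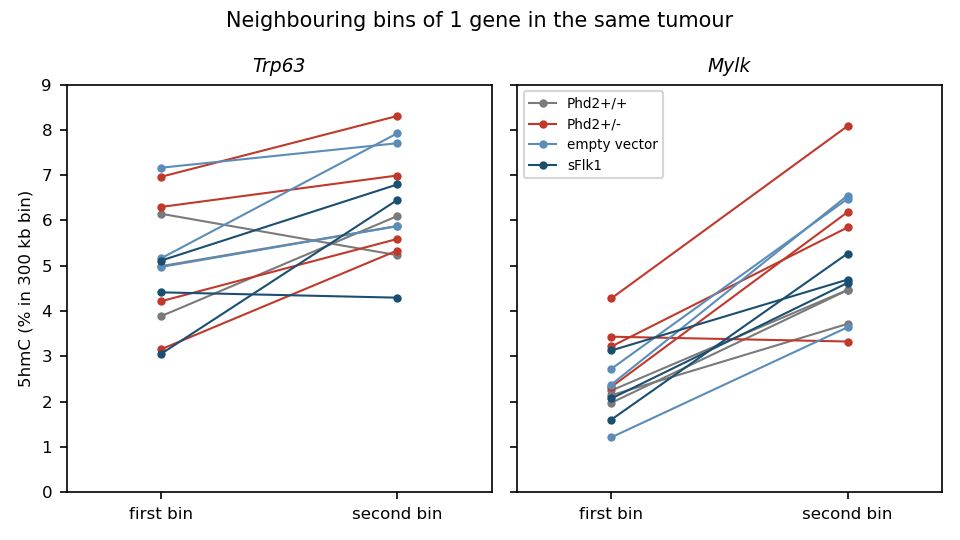
5hmC (% in the 300 kb bin, vertical axis from 0) in the first and second bin of Trp63 and of Mylk, with 1 line a tumour, coloured by group. Lines rise in 11 of 13 tumours at Trp63 and in 12 of 13 at Mylk.

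Around the genes, 5hmC changed from bin to bin. The second Trp63 bin was above both adjacent bins in 11 of 13 tumours, and so was the second Mylk bin. Acta2 stood above the mean of its 10 flanking bins in 13 of 13 tumours (4.20% against 2.69%), and the lowest of these held 0.583%. It stood below the average of each adjacent bin (5.31% and 4.48%) and above both in 2 of 13 tumours. The keratin bins sat on slopes: the bin before Krt14, with other type I keratins, held 2.79% and the one after it 4.74%, and the bins beside Krt5 held 2.86% and 5.52%, the latter with Krt18 and the rest of Krt8. The bin 2 before Krt14, filled with keratin-associated protein genes of hair, held 0.903%. The Krt5 bin was above both neighbours in 0 of 13 tumours.

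**Figure D4:**
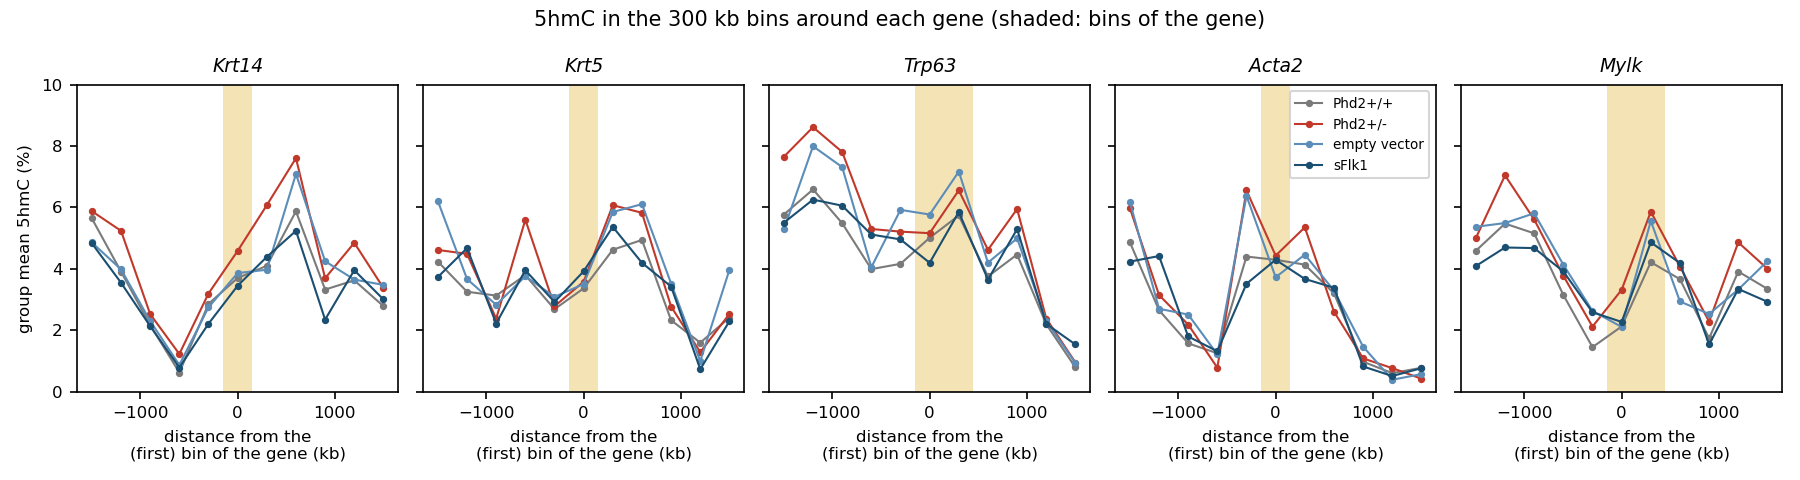
Group mean 5hmC (%, vertical axis from 0) in 300 kb bins against distance from the bin of each gene (kb), 5 bins to each side, with 1 line per group and the bins of the gene shaded. For Trp63 and Mylk the distance is from the first bin. Likeness of shape between the 4 groups was not measured. From the bin before Acta2 to the bin after it, sFlk1 tumours held 3.51%, 4.29% and 3.67%. Empty vector tumours held 6.38%, 3.73% and 4.46% there.

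Relative to the tumour mean, 9 of the 21 pairs of the 7 bins correlated positively across tumours and 12 negatively. Pearson r ran from -0.629 (Krt14 and the second Trp63 bin) to 0.411 (Krt14 and Krt5) with a median of -0.153 (n = 13 tumours). Dividing by the tumour mean takes out a shift shared by all bins of a tumour. Undivided values were not correlated, and no other sets of bins were compared. The 2 bins of Trp63 correlated at 0.390 and those of Mylk at 0.182. The points share libraries and, through the division, each tumour's mean. The spread within groups was 0.663 percentage points at Acta2 and 0.719 at Krt5, below the median of 0.914 among bins of like level, and 1.38 and 1.40 at the first Trp63 and the second Mylk bin, above 92.3% and 93.0% of them.

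By the same measure the most similar bin elsewhere in the genome (over 3 Mb away) was found for each. For Krt14 it was a bin of chromosome 9 with Sdhd, Dlat and Il18 (r = 0.891), for the second Trp63 bin one of chromosome 5 with Fam20c (r = 0.872), for the first Mylk bin one of chromosome 11 with Traf4 and Flot2 (r = 0.861), and for the second Mylk bin one of chromosome 16 with Erg and Kcnj15 (r = 0.834). For Acta2 it was a bin of X with Gm5169 (r = 0.826), and for Krt5 (r = 0.923) and the first Trp63 bin (r = 0.899) bins without a protein-coding gene. Each was the highest of 8555 or more correlations over 13 tumours, and between 2 and 20 bins per member exceeded 0.8, so these are descriptions of the highest values of a long search.

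Other genes of basal and myoepithelial cells were taken from a list of 28, which fell in 26 bins, 1 of them the Krt14 bin with Krt16 and Krt17. In Phd2+/- tumours 24 had the higher and 4 the lower mean, where 75.1% of all bins and 90.9% of those of the level of the 7 were higher. With limma 0 passed, where 0% of all bins did, and 6 of 28 had an unadjusted p under 0.05, where 10.8% of all bins did. That share was not counted among bins of like level. The median difference over the 26 bins was 0.569, against 0.385 over all bins and 0.882 over those of the level of the 7. The median level of the 26 bins was 4.00%, against 2.36% over all bins. The 3 with the smallest p were Actg2, an actin of smooth muscle, Itgb4, the integrin of hemidesmosomes, and Dst, which links keratin filaments to them. The Actg2 bin (chr6:83400001-83700000) held 6.0% ± 0.912 (SD, n = 4) against 3.51% ± 0.509 (SD, n = 3), with a lowest heterozygous tumour of 5.38% above a highest wild-type tumour of 4.07% (limma adjusted p = 0.324). The Itgb4 bin (chr11:115800001-116100000) held 5.86% ± 0.543 against 3.90% ± 0.179 (limma adjusted p = 0.350). The Dst bin (chr1:33900001-34200000) held 7.51% ± 1.99 against 4.89% ± 0.723 (limma adjusted p = 0.357). In these 3 bins all heterozygous tumours were above all wild-type tumours, which the choice by smallest p favours, and none passed. Without such a choice it was so in 11.0% of all bins and 17.4% of those of like level. How many of the 28 were separated was not counted.

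In sFlk1 tumours 19 of the 28 had the lower and 9 the higher mean, where 59.5% of all bins and 68.5% of those of like level were lower. With limma 0 passed, where 0.0117% of all bins did, and 5 of 28 had an unadjusted p under 0.05, where 7.18% of all bins did. The median difference was -0.432, against -0.146 over all bins and -0.376 over those of like level. The smallest p belonged to Mme, the surface peptidase CD10 of myoepithelial cells, whose bin (chr3:63300001-63600000) held 1.98% ± 0.341 in sFlk1 and 4.04% ± 0.417 in empty vector tumours (SD, n = 3 each, limma adjusted p = 0.466). The bin of Cav1, a protein of membrane caveolae (chr6:17100001-17400000), held 3.11% ± 0.275 against 5.05% ± 0.680 (limma adjusted p = 0.661). The bin of Cald1, an actin-binding regulator of contraction (chr6:34500001-34800000), held 4.39% ± 0.183 against 6.13% ± 0.827 (limma adjusted p = 0.673). All 3 sFlk1 tumours were below all 3 controls in each of these bins, which the choice by smallest p favours. Without such a choice it was so in 8.24% of all bins and 11.6% of those of like level.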

How the data were processed

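The table the authors deposited holds percent values, 1 per 300 kb bin and tumour, for 13 tumours. Tumours were snap-frozen and DNA was extracted in buffers with 200 µM DFO, an iron chelator, per the labels' protocols. Per the submitters' processing notes, Bismark 0.13.1 and mm9 were used in an unstated role, but the last bin of chromosome 1 ends at 195471971, the GRCm38 length, so the bins were read as GRCm38. The pooling of calls within a bin and any coverage minimum were not given in the sources used here. Thinly and well covered bins count alike.

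The members and lists were chosen with earlier results of these data known. Gene positions came from RefSeq (GRCm38.p6), with all 5 genes and all listed genes matched, and listed genes were put in the bin with most of their body. Groups came from sample titles. Left out were bins on Y or mitochondrial DNA and any at 0 in all tumours, which kept 8576. All bins were fitted with limma 3.58.1 (R 4.3.3) on percentages, with 4 group means, a trend and Benjamini-Hochberg adjustment over all bins, and called at an adjusted p under 0.05. SE and 95% intervals are limma's. The limma fit was tested on simulated data with 200 changed bins, raised by 4 percentage points. Differences as small as those of the 7 bins were not tried there. Bins of like level are those with a mean over tumours within the range of the 7. Single values were tested by permutation (scipy 1.17.1). Named were all 7 bins, the 3 listed genes with the smallest p per model, and for each bin the 1 most correlated elsewhere. Alternatives were other filters, scales, normalizations and fits, 900 kb windows, a replicate block and each tumour left out.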

Additional observations from a re-analysis of the deposited data

How the results depend on the processing

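Over the 7 bins and 4 comparisons, 539 values were recomputed under the alternatives. None passed the threshold, the lowest limma adjusted p was 0.0688 (Acta2 in 900 kb windows, both models together), 509 kept their direction and 30 changed it. Divided by the tumour mean, the Phd2 difference became -0.479 at Krt5, -0.874 and -0.443 at the first and second Trp63 bins and -0.758 at Acta2, and the difference between models became -0.0873 at Krt14. Divided by the median these values were -0.385, -0.802, -0.314, -0.671 and -0.00979. In 900 kb windows the sFlk1 difference became -0.0789 at Krt5, -1.03 at Acta2, -0.191 at the first and 0.239 at the second Mylk bin, and both models together gave 0.333 at Krt5 and 1.10 at Acta2. The cause was not tested, except that the windows add neighbouring bins. With 1 tumour left out, the Phd2 difference ran from -0.451 to 0.818 at the first Trp63 bin and from -0.299 to 0.534 at Acta2. The sFlk1 difference ran from -1.19 to 0.186 at Krt14, -0.340 to 1.03 at Krt5 and -0.284 to 0.494 at the first Mylk bin. Both models together ran from -0.405 to 0.280 at Krt5. The difference between models ran from -0.308 to 1.07 at Krt14, -0.122 to 1.25 at Krt5, -1.15 to 0.276 at the second Trp63 bin and -0.00673 to 1.79 at the second Mylk bin.

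Over all bins limma called 0 in the Phd2 comparison (930 at an unadjusted p under 0.05) and 1 in each of the other 3. In the Phd2 comparison 1 bin was called on either log2 scale (percent plus 0.5 or plus 1) and with the replicate block. Both models together gave 0 among bins above 0 in all tumours, 2 on either log2 scale, 3 without a trend and 2 in 900 kb windows. The sFlk1 comparison gave 0 in 900 kb windows, and the difference between models 0 there and among bins above 0 in all tumours. With 1 tumour left out the counts ran from 0 to 1 (Phd2), 1 to 4 (sFlk1), 1 to 3 (together) and 1 to 2 (between models). Replicate numbers did not pair tumours: deviations of same-numbered tumours correlated at -0.0934 to -0.00429, and the replicate block changed no other call. The genome-wide differences kept direction throughout, at 0.637 with the replicate block in the Phd2 model (3 pairs, without Phd2+/- tumour 4) and -0.219 in the sFlk1 model (exact p = 0.25 each, the smallest that 3 pairs allow). Shallow depth that the table does not record limits every value of a single bin.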

Other observations

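Bins of genes of other cell types of a breast tumour were read from 5 lists, which say nothing of which cells were present. In the Phd2 model the mean was higher in heterozygous tumours for 8 of 9 genes of vascular smooth muscle and pericytes, which share Acta2 and Mylk expression with myoepithelial cells (median difference 0.781 percentage points). It was higher for 9 of 12 luminal genes (0.525), 8 of 9 fibroblast genes (0.449), 5 of 8 endothelial genes (0.930) and 7 of 8 immune genes (0.391). Over all bins 75.1% were higher and the median was 0.385, and over bins of the level of the 7 these were 90.9% and 0.882. In the sFlk1 model the mean was lower for 7 of 9 smooth muscle and pericyte genes (-0.225), 9 of 12 luminal genes (-0.534) and 6 of 8 endothelial genes (-0.355), where 59.5% of all bins were lower and the median was -0.146. Over bins of the level of the 7, 68.5% were lower and the median was -0.376. Fibroblast genes were lower for 4 of 9 (0.00317) and immune genes for 3 of 8 (0.125). With limma 0 genes of the 5 lists passed in either model, while 6 and 3 of them had an unadjusted p under 0.05, as 10.8% and 7.18% of all bins had.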
